A study of Mus musculus with 30 samples.

Results

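The genes of oxidative phosphorylation were followed in cultured mouse tumor cells exposed to interferons or to a STING agonist. Members were taken by gene symbol: nuclear genes whose names begin with Nduf (followed by a, b, c, s or v), Uqcr, Cox with a digit from 4 to 8, or Atp5, the genes Sdha to Sdhd, and the mitochondrial Nd, Co, Cytb and Atp genes. Symbols ending in -ps or -rt were left out, and a mean of at least 1 CPM (counts scaled to library size, per 1e6 reads on genes) over 24 bulk RNA libraries was required. Of 115 matching symbols, 94 reached that level and 21 did not, so the members were 94 of 49315 genes counted. They comprised 86 nuclear genes and 8 genes of the mitochondrial genome. By symbol, 37 nuclear members belonged to complex I (Ndufa4, now known as a subunit of complex IV, is counted here by its name), 8 to complex I assembly, 4 to complex II, 8 to complex III, 12 to complex IV and 17 to complex V. The members nearest the minimum were mt-Nd3 at 1.41 CPM and Cox7a1 at 3.64 CPM, and mt-Co3 lay just outside it at 0.495 CPM.

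Both cell lines carry the label C57BL/6 and were treated in culture for 24 h, although the labels give the source as tumor. 6694c2 is a pancreatic ductal adenocarcinoma line derived from female mice that carried Pdx-cre, with Cre driven in the pancreatic lineage by the Pdx promoter, and alleles that included p53+/floxed and YFP-floxed. B16F10 is a melanoma line. Each line had 3 libraries in each of 4 groups: vehicle, labelled NA for treatment, 100 ng/mL of IFNγ, 1000 U/mL of IFNβ, or 225 μg/mL of a STING agonist. Each line is a single line, so a difference between the lines cannot be told apart from a difference between melanoma and pancreatic cancer cells. In bulk RNA, fewer cells of a type and less RNA per cell cannot be told apart.

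Oxidative phosphorylation couples the transfer of electrons from NADH and succinate to oxygen with the synthesis of ATP in the inner mitochondrial membrane. Complex I oxidizes NADH, complex II oxidizes succinate, complex III passes electrons from ubiquinol to cytochrome c, complex IV reduces oxygen, and complex V makes ATP from the proton gradient. Complex II is encoded wholly in the nucleus, whereas the other complexes join nuclear subunits with a few subunits made from mitochondrial DNA, so the complexes need products of both genomes. Interferons are best known for inducing antiviral and antigen presentation genes through STAT transcription factors.

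The 8 mitochondrial members were mt-Nd1 to mt-Nd6 without mt-Nd4l, which encode complex I subunits, mt-Cytb, which encodes cytochrome b of complex III, and mt-Co1, which encodes the catalytic core subunit of complex IV. The matching genes mt-Nd4l, mt-Co2, mt-Co3, mt-Atp6 and mt-Atp8 fell under the minimum, with 1 to 14, 0 to 21, 3 to 27, 1 to 24 and 0 to 11 reads per library. Part of the mitochondrial genome is also present as a copy on chromosome 1 of the reference. Aligned base by base in GRCm38, mt-Co2 was identical to the copy Gm28661 over 681 bases, mt-Co3 to Gm28437 over 783, mt-Atp6 to Gm10925 over 678 and mt-Nd4l to Gm10222 over 294. How reads that match more than one place were counted is not given in the sources used here, so levels of these genes are not read as expression. For mt-Nd4, 63.6% of the gene was identical to the copy Gm28439, which drew 125 reads over the 24 libraries against 180079 on mt-Nd4. mt-Co1 shared 31.5% of its bases with Gm29216, which drew 367 reads against 1545025. mt-Cytb, mt-Nd1, mt-Nd2, mt-Nd5 and mt-Nd6, and mt-Atp8 with its 114 reads over all libraries, had no annotated copy in that stretch; only annotated transcripts were aligned, not the bases between them.

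mt-Nd3 differed from its copy Gm28438 at 1 of 345 aligned bases, written T3C, with the mt-Nd3 base first, the position counted from 1 at the 5′ end of mt-Nd3, and the Gm28438 base last. The first 60 bases of both are shown because the lines divided their reads between them; the differing base is in capitals. They lie at chrMT:9459-9518 on the plus strand and at chr1:24613060-24613119 on the minus strand of GRCm38.
mt-Nd3: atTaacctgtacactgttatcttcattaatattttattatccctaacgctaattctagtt
Gm28438: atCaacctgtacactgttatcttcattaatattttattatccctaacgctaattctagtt
In B16F10 the vehicle libraries held 0, 0 and 1 reads on mt-Nd3, the IFNγ libraries 1, 1 and 0, the IFNβ libraries 3, 1 and 1, and the STING agonist libraries 3, 1 and 5. In 6694c2 the vehicle libraries held 46, 60 and 37, the IFNγ libraries 40, 45 and 77, the IFNβ libraries 149, 60 and 113, and the STING agonist libraries 45, 91 and 77. Every 6694c2 library lay above every B16F10 library. The copy showed the opposite order, with 67 to 205 reads in B16F10 and 1 to 9 in 6694c2. Of the reads on both, mt-Nd3 took 0% to 4.13% in B16F10 and 90.2% to 98.7% in 6694c2. Which base each line carries was not read here, because only counts were used, so the mt-Nd3 counts give the assignment of reads and not a level of the transcript.

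**Figure D1:**
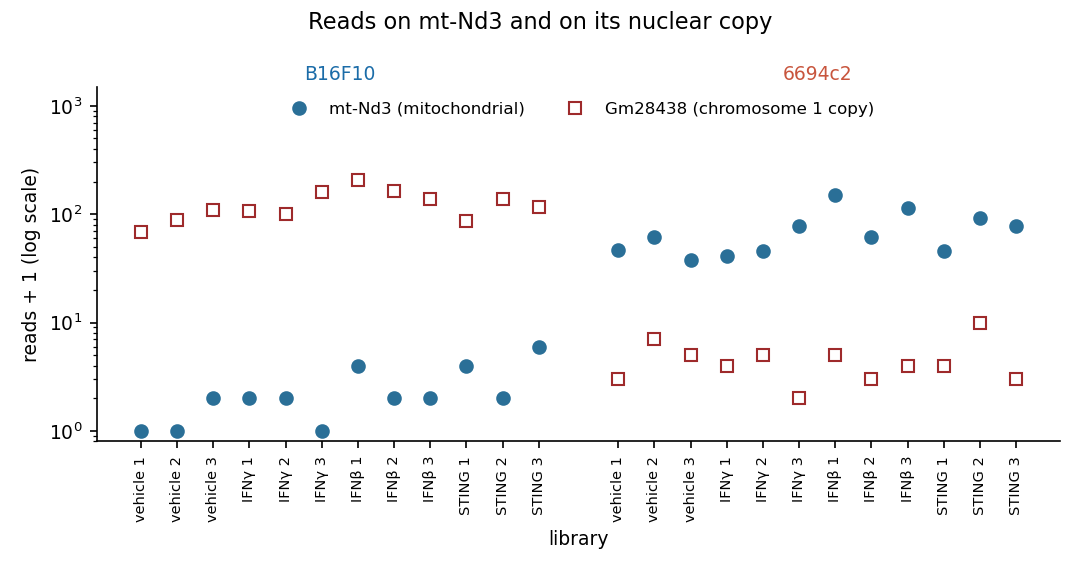
Reads plus 1 (log axis) on mt-Nd3, filled circles, and on its chromosome 1 copy Gm28438, open squares, in each of the 24 libraries. In B16F10 the copy holds 67 to 205 reads and mt-Nd3 0 to 5, and in 6694c2 mt-Nd3 holds 37 to 149 and the copy 1 to 9.

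Among the mitochondrial members, levels per kilobase of exon were highest for mt-Cytb, mt-Co1 and mt-Nd1. In B16F10 vehicle libraries mt-Cytb stood at 1718 ± 122 CPM per kb, mt-Co1 at 1452 ± 195 and mt-Nd1 at 1313 ± 161 (SD, n = 3). In 6694c2 vehicle libraries mt-Co1 stood first at 1559 ± 271, followed by mt-Nd1 at 993.9 ± 136 and mt-Cytb at 800.1 ± 139.8 (SD, n = 3). Neighbours in each order lay within about the sum of their SDs, apart from mt-Co1 and mt-Nd1 in 6694c2. The remaining genes were lower in both lines: mt-Nd2 had 433 ± 45 and 366 ± 62 CPM per kb in B16F10 and 6694c2, and mt-Nd4 had 299.9 ± 35.2 and 178 ± 22 (SD, n = 3). The mt-Nd6 gene lies on the other strand, and the strand setting of the counting is not given, so its reads cannot be told apart from those of transcripts opposite to it.

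Interferon changed the balance among the mitochondrial transcripts: mt-Co1 took a larger share of the reads on the 8 mitochondrial members with IFNγ and IFNβ in both lines. This share was chosen as a measure after the values had been seen, and it does not depend on how much of a library was mitochondrial. In B16F10 vehicle libraries mt-Co1 held 30.4%, 32.2% and 31.9% of these reads, with IFNγ 41.7%, 44.2% and 40.5%, and with IFNβ 50.1%, 48.6% and 51.6%. The 3 groups did not overlap, and IFNβ libraries were the highest. With STING agonist the shares were 34.0%, 34.9% and 33.9%, all above the vehicle libraries by a smaller step. In 6694c2 vehicle libraries mt-Co1 held 44.7%, 43.6% and 44.2%, with IFNγ 49.6%, 49.7% and 49.3%, and with IFNβ 55.0%, 61.1% and 53.9%. Again the interferon libraries all lay above the vehicle libraries, and those with IFNβ above those with IFNγ. The STING agonist libraries of 6694c2, at 47.7%, 44.4% and 43.5%, overlapped with vehicle.

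As group means, the mt-Co1 share rose from 31.5% ± 0.94 to 42.1% ± 1.86 with IFNγ and 50.1% ± 1.51 with IFNβ in B16F10, and from 44.2% ± 0.565 to 49.5% ± 0.243 and 56.7% ± 3.90 in 6694c2 (SD, n = 3). With 3 libraries against 3, an exact two-sided permutation test cannot go below p = 0.1, and it gave 0.1 for each interferon comparison, for STING agonist in B16F10 and for the untreated lines, and 0.7 for STING agonist in 6694c2. Adjusted over the 7 comparisons by Benjamini-Hochberg, the exact permutation p of 0.1 became 0.117. The ratio of mt-Co1 to mt-Cytb reads moved likewise, from 1.14 ± 0.0762 to 2.03 ± 0.14 and 3.002 ± 0.136 in B16F10, and from 2.63 ± 0.00319 to 3.31 ± 0.087 and 4.97 ± 0.84 in 6694c2, in the order vehicle, IFNγ, IFNβ (SD, n = 3).

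**Figure D2:**
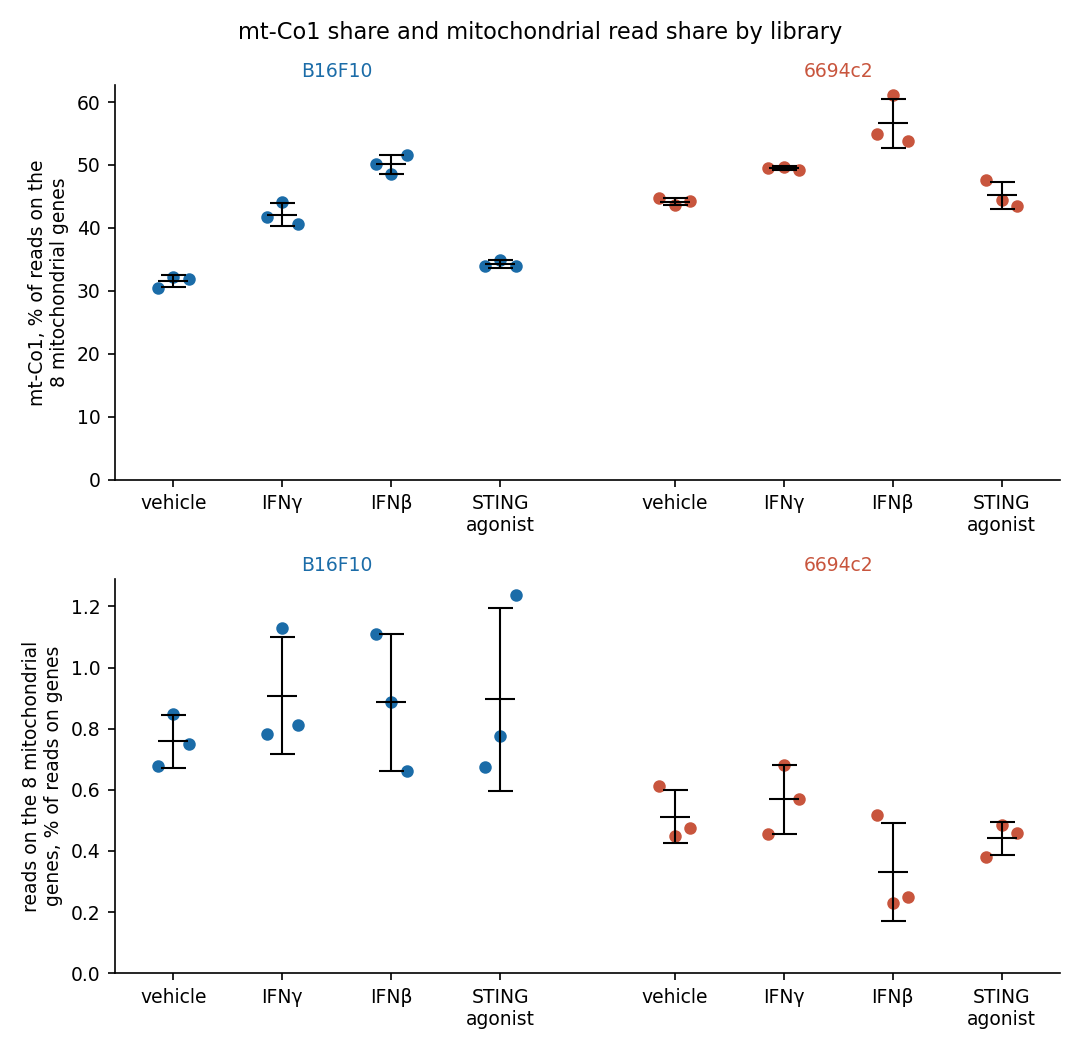
Top, mt-Co1 as a percentage of the reads on the 8 mitochondrial members; bottom, those members as a percentage of all reads on genes. Dots are libraries and bars the mean with its SD (n = 3): interferon groups separate from vehicle in the upper panel, at means of 42.1% and 50.1% against 31.5% in B16F10 and 49.5% and 56.7% against 44.2% in 6694c2, whereas treated and vehicle libraries overlap in the lower one.

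The mitochondrial members as a whole varied widely among libraries of 1 group. They took 0.661% to 1.24% of reads on genes in B16F10 and 0.229% to 0.683% in 6694c2. The 6694c2 IFNβ libraries held 0.517%, 0.229% and 0.25%, and B16F10 STING agonist replicate 3 held the 1.24%. No treatment separated from vehicle on this measure in either line. Fold changes of single mitochondrial genes carry this spread, and several calls below rested on 1 library.

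For every gene, treated libraries were compared with vehicle in edgeR's quasi-likelihood test, fitted over 21138 genes within each line, and a gene was called at a Benjamini-Hochberg adjusted p under 0.05. The 3 treatments of a line share its vehicle libraries. Levels below are CPM scaled by trimmed mean of M values (TMM) within a line. mt-Co1 had 2065, 2737 and 2417 CPM in B16F10 vehicle libraries, 3360, 5074 and 3386 with IFNγ, and 5418, 4211 and 3393 with IFNβ. The interferon libraries all lay above vehicle. Its log2 fold change was 0.71 (SE 0.06, edgeR adjusted p = 4.09e-26) with IFNγ and 0.85 (SE 0.06, edgeR adjusted p = 4.99e-35) with IFNβ. These values do not rest on the spread of the mt-Co1 libraries alone, because edgeR estimates spread partly over all genes. The nuclear gene Uqcrh, whose libraries lay closer together, also had an SE of 0.06 with each interferon. mt-Cytb had 1960, 2279 and 2084 CPM in vehicle and 1817, 1463 and 1078 with IFNβ, again without overlap but lower, with a log2 fold change of -0.54 (SE 0.06, edgeR adjusted p = 7.63e-16). DESeq2 and the fit of all 24 libraries did not call mt-Cytb.

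With IFNγ in B16F10, 3 of 8 mitochondrial members were higher and 0 lower, where 12% and 10.8% of all genes tested were higher and lower. The other members called were mt-Nd4 and mt-Nd5, each at 0.20 on the log2 scale, and both calls were lost without vehicle replicate 1 or IFNγ replicate 2; the count went to 6 without vehicle replicate 2 or IFNγ replicate 1 and to 5 without IFNγ replicate 3. With IFNβ in B16F10, mt-Co1 was higher and mt-Cytb and mt-Nd1 were lower, where 12.7% and 11.2% of all genes were higher and lower. mt-Nd1, at 1173, 1517 and 1355 CPM in vehicle and 1363, 1144 and 810.3 with IFNβ, overlapped between the groups, and its call at -0.29 was lost without IFNβ replicate 3. The count of 3 went to 7 without IFNβ replicate 1 and to 6 without IFNβ replicate 3.

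In 6694c2, IFNβ lowered 6 of 8 mitochondrial members and raised 0, where 10.4% of all genes were higher and 7.86% lower. mt-Cytb had 1014, 736.7 and 787 CPM in vehicle and 638, 241 and 315 with IFNβ. mt-Nd1 had 1018, 802 and 818 in vehicle and 665, 313 and 328 with IFNβ. Both separated from vehicle, and IFNβ replicate 1 was the highest of its group each time. The log2 fold changes were -1.09 for mt-Cytb (edgeR adjusted p = 3.4e-06) and -1.01 for mt-Nd1 (edgeR adjusted p = 9.92e-07), and mt-Nd2, mt-Nd4, mt-Nd5 and mt-Nd6 fell by 0.86, 0.83, 0.65 and 0.43. mt-Co1 did not pass, at -0.23 (SE 0.17, edgeR adjusted p = 0.343). DESeq2 called 2 of these 6. Calls of mt-Nd5 and mt-Nd6 were lost without IFNβ replicate 2, and that of mt-Nd6 also without vehicle replicate 3.

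The effect of IFNβ on mt-Co1 differed between the lines by 1.10 on the log2 scale (SE 0.27, edgeR adjusted p = 0.00429), B16F10 being higher. It was 1 of 8 mitochondrial members called in that contrast, where 5.9% of all genes were higher and 6.16% lower. All 8 differences lay above 0, from 0.46 to 1.36, the largest being that of mt-Nd3, whose counts are not read as a level. The count of 1 was 7 without 6694c2 IFNβ replicate 1, 4 without B16F10 IFNβ replicate 3 and 7 without the filter on low counts. For the IFNγ and STING agonist effects 0 of 8 were called with the filter, and 1 and 7 without it. The 8 STING agonist differences all lay above 0, from 0.31 to 3.13, again with mt-Nd3 the largest. Against vehicle in 6694c2, 0 of 8 mitochondrial members were called with IFNγ or STING agonist by edgeR within the line or by DESeq2, where 7.89% and 5.66% of all genes were higher and lower with IFNγ. With IFNγ the count was 1 without vehicle replicate 1 or IFNγ replicate 1 and with the replicate block; with either treatment it was 1 with only the 6 libraries compared and 2 without the filter.

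STING agonist in B16F10 gave 6 of 8 mitochondrial members higher and 0 lower, where 1.93% of all genes were higher and 1.53% lower, but this rested on replicate 3. mt-Co1 had 2290, 2664 and 4124 CPM with STING agonist against 2065, 2737 and 2417 in vehicle, so that replicate 3 alone lay outside the vehicle range. Without replicate 3, 1 member was called, in the lower direction, and without vehicle replicate 1 the count was 2. DESeq2 called 0. Of 10 epithelial markers, 8 were called higher in untreated 6694c2 than in untreated B16F10 and 0 lower, where 28.7% of all genes were higher. The summed level of the 10 was 15.95 to 22.8 CPM in B16F10 vehicle libraries and 113 to 148 in the STING agonist libraries, against 12040 to 14010 in the libraries of 6694c2. Its part in the B16F10 STING agonist results was not tested.

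Most nuclear members called with either interferon were lower in both lines, by little. With IFNβ in 6694c2 the calls were 9 lower and 4 higher, and over all 86 members, called or not, 45 lay below 0 and 41 above. Most calls were made with IFNβ in B16F10, where 62 of 86 nuclear members fell and 1 rose, against 11.2% and 12.7% of all genes tested. Their median log2 fold change was -0.21, against 0.02 over all genes tested. By complex, 28 of 37 members of complex I fell, 3 of 8 assembly factors of complex I fell and 1 rose, and 1 of 4 members of complex II, 5 of 8 of complex III, 11 of 12 of complex IV and 14 of 17 of complex V fell. Within complex I, 3 of 7 nuclear core subunits and 25 of 30 accessory subunits fell. As a share of all reads on genes, the nuclear members took 2.37% ± 0.0525 in vehicle and 2.12% ± 0.121 with IFNβ (SD, n = 3), and the libraries of the groups did not overlap (exact two-sided permutation p = 0.1, the smallest possible). Fitted with all 24 libraries, edgeR called 40 nuclear members in place of 63.

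Marker genes moved in the same B16F10 libraries. The summed level of 9 melanocyte markers was 20570 to 20710 CPM in vehicle, 16510 to 17050 with IFNγ and 16960 to 18020 with IFNβ, without overlap with vehicle. With IFNγ 5 of 9 were lower and 0 higher, and with IFNβ 6 were lower and 1 higher. Of all genes tested, 10.8% were lower and 12% higher with IFNγ, and 11.2% and 12.7% with IFNβ. The summed level of 10 epithelial markers was 15.95 to 22.8 CPM in vehicle, 19.6 to 44.2 with IFNγ and 21.4 to 61.4 with IFNβ, which overlapped with vehicle, and 5 and 7 of 10 were called higher and 0 lower. The part of either list in the B16F10 interferon results was not tested.

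**Figure D3:**
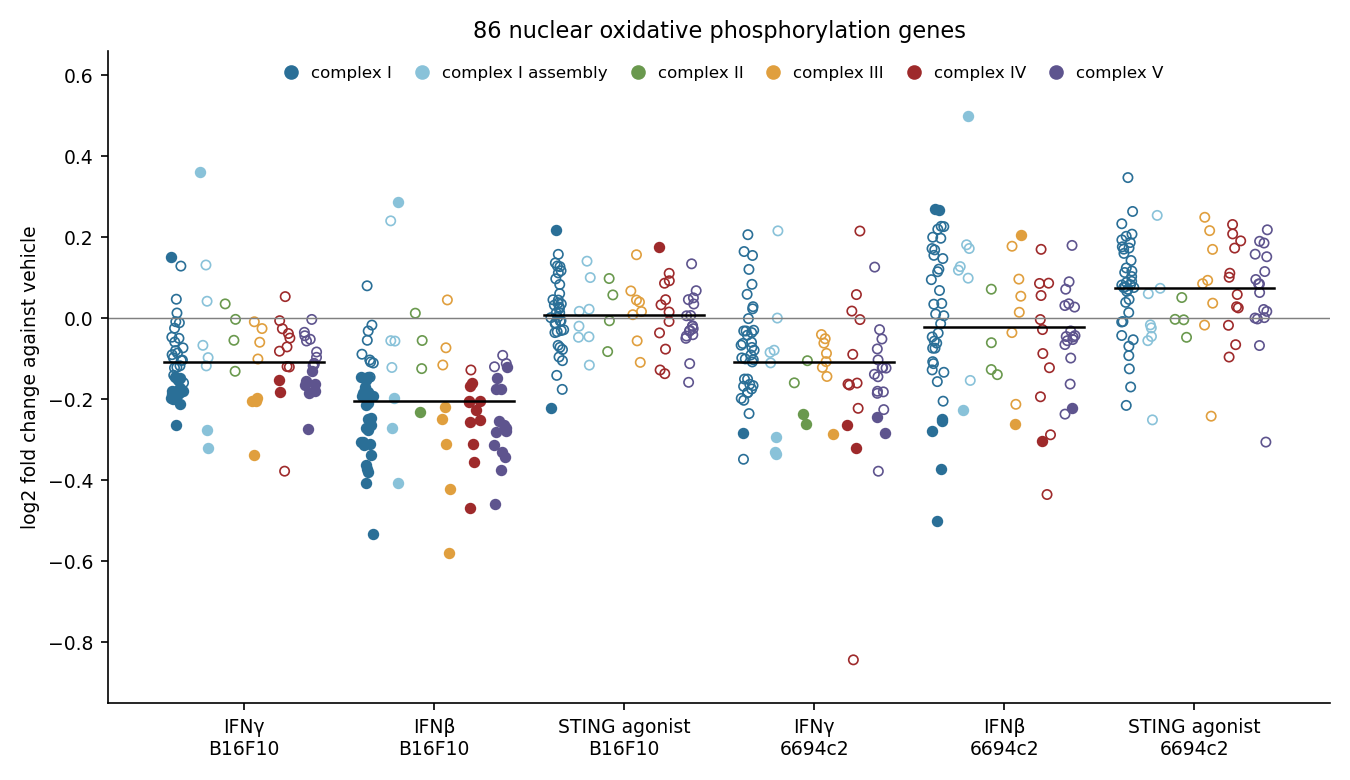
Log2 fold change against vehicle of the 86 nuclear members in each treatment and line, coloured by complex; filled points are called at an edgeR adjusted p under 0.05 and the black line is the median. The medians are -0.11 (IFNγ), -0.21 (IFNβ) and 0.01 (STING agonist) in B16F10 and -0.11, -0.02 and 0.08 in 6694c2.

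Uqcrh, which encodes the hinge subunit of complex III that binds cytochrome c1, had the smallest adjusted p among the falls in B16F10. It had 237, 228 and 234 CPM in B16F10 vehicle libraries, 181, 175 and 197 with IFNγ, and 157, 144 and 167 with IFNβ. The groups did not overlap, and those with IFNβ were the lowest. Its log2 fold change was -0.34 (SE 0.06, edgeR adjusted p = 3.87e-08) with IFNγ and -0.58 (SE 0.06, edgeR adjusted p = 6.07e-21) with IFNβ. In 6694c2 it had 95.6, 133 and 121 CPM in vehicle, 97.8, 80.5 and 108 with IFNγ and 88.7, 102 and 101 with IFNβ. These ranges overlapped in vehicle replicate 1, and the log2 fold changes of -0.29 (edgeR adjusted p = 0.0265) and -0.26 (edgeR adjusted p = 0.0363) were lost with DESeq2 and without vehicle replicate 2 or 3, IFNγ replicate 2 or IFNβ replicate 1.

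The next most certain falls with IFNβ in B16F10 were small subunits of complexes I, III and V. Ndufc1, an accessory subunit of complex I, had 111, 113 and 133 CPM in vehicle and 81.7, 72.8 and 92.3 with IFNβ, a log2 fold change of -0.53 (SE 0.06, edgeR adjusted p = 5.71e-15). Uqcr11, the smallest subunit of complex III, had 198, 172 and 199 CPM in vehicle and 137, 138 and 149 with IFNβ, a log2 fold change of -0.42. For complex V, Atp5k, which encodes subunit e, went from 88.2, 83.2 and 88.3 CPM to 67.0, 57.0 and 65.1, and Atp5j, which encodes coupling factor 6, from 313, 299 and 324 to 235, 219 and 268. None of these 4 overlapped between the groups. The gene that rose was Ndufaf1, a complex I assembly factor, from 32.3, 35.5 and 34.1 CPM to 43.1, 39.1 and 42.3, without overlap (log2 fold change 0.29, SE 0.08, edgeR adjusted p = 0.0016).

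Short transcripts moved with this result. Of the 29 nuclear members with an exon length of at most 1185 bases, 28 fell with IFNβ in B16F10 with a median of -0.31, and of the 29 longest 18 fell with a median of -0.16. Among other protein-coding genes at 10 CPM or more, 45.0% of the short ones and 19.6% of the long ones fell, with medians of -0.15 and 0.02. The part of transcript length in the result was not tested.

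IFNγ in B16F10 lowered 30 of 86 nuclear members and raised 2, against 10.8% and 12% of all genes, with a median of -0.11. The fallen genes were 15 of 37 in complex I, 2 of 8 assembly factors, 0 of 4 in complex II, 4 of 8 in complex III, 2 of 12 in complex IV and 7 of 17 in complex V. All 15 counted with complex I were among its 30 accessory genes, Ndufa4 included, while 0 of 7 core subunits fell. By exon length, with bounds of 1185 and 2152 bases, 17 of 29 short, 4 of 28 middle and 9 of 29 long members fell. Among other protein-coding genes at 10 CPM or more, 32.2%, 23.05% and 19.5% of these classes fell. The part of transcript length and level in the IFNγ result was not tested. Besides Uqcrh, the leading falls were Ndufaf4, Atp5k at -0.27, Ndufa2 at -0.26 and Ndufa4 at -0.20. Ndufa2, an accessory subunit of complex I, had 84.6, 83.9 and 88.5 CPM in vehicle and 69.1, 67.2 and 78.0 with IFNγ, without overlap. Ndufs3, a core subunit, rose from 158, 159 and 163 to 179, 182 and 172 CPM (log2 fold change 0.15, edgeR adjusted p = 0.0385), but DESeq2 did not call it and leaving out any 1 vehicle library or IFNγ replicate 1 or 2 removed the call. The count of 32 fell to 12 without vehicle replicate 3, to 19 without IFNγ replicate 1 and to 14 without IFNγ replicate 2, and to 4 when all 24 libraries were fitted together.

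In 6694c2, IFNγ lowered 11 of 86 nuclear members and raised 0, against 5.66% and 7.89% of all genes, with a median of -0.11. They were 1 member of complex I, 3 assembly factors, 2 of complex II, 1 of complex III, 2 of complex IV and 2 of complex V. In the same classes of exon length, 2 of 29 short, 4 of 28 middle and 5 of 29 long members fell. Among other protein-coding genes at 10 CPM or more, a nearer comparison by level than all genes, 14.4%, 12.9% and 8.96% fell. Ndufs1, the largest core subunit of complex I, had 121, 119 and 124 CPM in vehicle and 107, 97.6 and 94.5 with IFNγ. Atp5c1, which encodes the rotating gamma subunit of complex V, had 222, 256 and 252 in vehicle and 213, 187 and 199 with IFNγ. Both separated without overlap, with log2 fold changes of -0.28 each (edgeR adjusted p = 0.00219 and 0.00309). Sdhd, a membrane anchor of complex II, fell by 0.26 on the log2 scale, from 142, 153 and 161 to 136, 117 and 127 CPM, a call lost without vehicle replicate 3 or IFNγ replicate 2. The count of 11 rested on single libraries: it was 34 without vehicle replicate 1, 6 without vehicle replicate 2 or IFNγ replicate 2, and 4 without vehicle replicate 3. The summed melanocyte markers stood at 34.9 to 127 CPM in these IFNγ libraries against 83.4 to 84.9 in vehicle, so the IFNγ libraries were far apart from each other, and the part of this in the result was not tested.

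IFNβ in 6694c2 lowered 9 of 86 nuclear members and raised 4, against 7.86% and 10.4% of all genes, so both shares were near or under the background. The median was -0.02. The surest fall was Ndufb10, an accessory subunit of the complex I membrane arm, from 93.9, 104 and 107 CPM to 77.5, 73.7 and 84.5 (log2 fold change -0.37, SE 0.07, edgeR adjusted p = 9.01e-05). Ndufs1 fell by 0.25 on the log2 scale, Ndufv2, a core subunit of the NADH-oxidizing module, by 0.25, and Ndufb4, another membrane arm subunit, by 0.50; the calls of Ndufv2 and Ndufb4 were lost without IFNβ replicate 2, and that of Ndufv2 also without vehicle replicate 3. Ndufs7, Uqcrc1 and Ndufa11 were called higher at 0.27, 0.21 and 0.27, and all 3 calls were lost with DESeq2, without TMM scaling and without vehicle replicate 1 or 3 or IFNβ replicate 3. The count of 13 went to 21 without vehicle replicate 1 and to 6 without vehicle replicate 3. The summed level of 9 melanocyte markers, which mark B16F10, was 83.4 to 84.9 CPM in 6694c2 vehicle libraries, 25.2 to 38.5 with IFNβ and 17.9 to 21.5 with STING agonist, beside the IFNγ range above and against 16510 to 20940 in B16F10 libraries, and its part in the 6694c2 results was not tested.

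STING agonist moved few nuclear members. In B16F10, 2 of 86 were higher and 1 lower, against 1.93% and 1.53% of all genes. Ndufv2 went from 215, 200.1 and 219 CPM to 253, 241 and 243, Cox7b, a small subunit of complex IV, from 554, 541 and 595 to 629, 630.0 and 649, and Ndufs5, an accessory subunit of complex I, from 79.4, 73.8 and 74.2 to 67.0, 58.5 and 69.7. None of the 3 overlapped with vehicle, at log2 fold changes of 0.22, 0.17 and -0.22. Each call was lost when single libraries were left out, that of Ndufv2 without vehicle replicate 2 or STING agonist replicate 1, that of Cox7b without vehicle replicate 1 or 2 or any STING agonist library, and that of Ndufs5 without any vehicle library or STING agonist replicate 1 or 2. In 6694c2, 0 of 86 were called by edgeR within the line or by DESeq2, where 0.203% and 0.156% of all genes were higher and lower. The count was 3 without vehicle replicate 2, 1 without vehicle replicate 1, and 1 each with only the 6 libraries compared, without the filter and with the replicate block.

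Besides Uqcrh, 2 nuclear members were called lower in all 4 interferon comparisons. The 3 genes were picked out after their values had been seen, and the comparisons within a line share vehicle libraries. The share of all genes called lower in all 4 is not given here. Cox7a2l, which helps to join complexes III and IV into supercomplexes, had 136, 133 and 138 CPM in B16F10 vehicle libraries, 122, 111 and 125 with IFNγ and 114, 110.2 and 118 with IFNβ. In 6694c2 it had 119, 143 and 140 CPM in vehicle, 111, 100.3 and 111 with IFNγ and 101, 116 and 108 with IFNβ. Treated libraries were below vehicle in each comparison. Its log2 fold changes were -0.18 and -0.25 in B16F10 and -0.32 and -0.30 in 6694c2 (edgeR adjusted p = 0.0109, 0.000195, 0.00134 and 0.00177), and the first was lost without vehicle replicate 3 or IFNγ replicate 2.

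Ndufaf4, a complex I assembly factor, had 58.8, 63.0 and 62.9 CPM in B16F10 vehicle libraries, 51.1, 44.9 and 51.9 with IFNγ and 55.8, 51.7 and 53.6 with IFNβ. In 6694c2 it had 39.5, 41.6 and 44.4 CPM in vehicle, 37.1, 33.3 and 32.2 with IFNγ and 34.5, 37.3 and 35.7 with IFNβ. No group overlapped with its vehicle. The log2 fold changes were -0.32 and -0.20 in B16F10 and -0.29 and -0.23 in 6694c2 (edgeR adjusted p = 4.96e-05, 0.02, 0.0117 and 0.0498). Leaving out single libraries kept the first call and removed the others, for IFNβ in B16F10 without vehicle replicate 2 or 3 or IFNβ replicate 2, for IFNγ in 6694c2 without vehicle replicate 3 or IFNγ replicate 3, and for IFNβ in 6694c2 without vehicle replicate 2 or 3 or IFNβ replicate 1 or 3.

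Ndufaf3, which works with Ndufaf4 in complex I assembly, went the other way. It had 17.98, 17.5 and 16.9 CPM in B16F10 vehicle libraries and 23.02, 23.1 and 21.2 with IFNγ, and 9.44, 12.6 and 9.83 in 6694c2 vehicle libraries against 15.3, 14.8 and 15.0 with IFNβ. Neither pair of groups overlapped. The log2 fold changes were 0.36 (SE 0.10, edgeR adjusted p = 0.00126) and 0.50 (SE 0.12, edgeR adjusted p = 0.00139), and both calls held under every alternative run. The other interferon comparisons gave 0.24 and 0.22 and did not pass.

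The promoters of Uqcrh, Cox7a2l, Ndufaf4 and Ndufaf3 are shown as the 200 bases before the RefSeq start, because these genes moved in more than one interferon comparison. They lie at chr4:116075071-116075270 on the minus strand, chr17:83514334-83514533 on the minus strand, chr4:24897883-24898082 on the plus strand and chr9:108567437-108567636 on the minus strand of GRCm38.p6. Capitals mark matches to the letters searched below.
Uqcrh: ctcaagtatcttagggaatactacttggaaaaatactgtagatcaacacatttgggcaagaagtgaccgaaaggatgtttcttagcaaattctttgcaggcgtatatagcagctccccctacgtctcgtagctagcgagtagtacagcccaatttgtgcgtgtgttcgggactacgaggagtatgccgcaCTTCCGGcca
Cox7a2l: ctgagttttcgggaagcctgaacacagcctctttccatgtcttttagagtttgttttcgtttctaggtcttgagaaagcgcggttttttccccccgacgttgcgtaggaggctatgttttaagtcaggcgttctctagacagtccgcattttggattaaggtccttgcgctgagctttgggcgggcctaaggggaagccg
Ndufaf4: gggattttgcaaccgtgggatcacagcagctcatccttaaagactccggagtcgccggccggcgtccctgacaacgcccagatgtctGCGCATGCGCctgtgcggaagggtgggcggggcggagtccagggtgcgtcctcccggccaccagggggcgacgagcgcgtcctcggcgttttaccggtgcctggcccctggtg
Ndufaf3: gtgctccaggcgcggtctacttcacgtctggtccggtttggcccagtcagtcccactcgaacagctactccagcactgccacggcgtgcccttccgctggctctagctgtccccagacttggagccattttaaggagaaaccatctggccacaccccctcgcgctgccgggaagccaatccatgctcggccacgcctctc
Uqcrh held the ETS letters on the reverse strand, 10 bases before the start, and Ndufaf4 the NRF1 letters on both strands, in overlapping matches. Cox7a2l and Ndufaf3 held none of the letters searched.

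Promoters were found in RefSeq for 71 of the 86 nuclear members, and 5 sets of letters were searched on both strands. NRF1, a regulator of respiratory genes, was searched as GCATGCGC and ETS factors, which include GABP, as CCGGAAG. These letters stood in 8 (11.3%) and 11 (15.5%) of the member promoters, against 2.18% and 6.45% of 27025 promoters. AAGATGGC, for YY1, stood in 0 of 71 against 1.22%. Only the 200 bases before the start were searched, so letters at or after the start were not counted. The interferon-response letters GAAANNGAAA stood in 1 (1.41%) against 2.33%, and the STAT-site letters TTCNNNGAA in 4 (5.63%) against 5.62%. Of the 71 members with a promoter, 52 were among those that fell with IFNβ in B16F10, and of these 6 held the NRF1 letters and 7 the ETS letters. Among the other 19 of the 71 the counts were 2 and 4.

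Differences between the lines in the response to treatment were tested directly over all 24 libraries. For IFNβ, the effect on 12 of 86 nuclear members was lower in B16F10 than in 6694c2 and on 0 higher, where 6.16% and 5.9% of all genes were called lower and higher. Within B16F10, 10 of the 12 were called lower against vehicle and all 12 lay below 0, from -0.36 to -0.12. Within 6694c2 all 12 lay above 0, up to 0.27, and 2 of them, Uqcrc1 and Ndufa11, were called higher. Ndufc2, an accessory subunit of complex I, had 215, 204 and 203 CPM in B16F10 vehicle libraries and 159, 168 and 188 with IFNβ, while in 6694c2 it had 64.4, 86.6 and 70.1 in vehicle and 81.6, 87.0 and 89.1 with IFNβ. The effects differed by -0.46 (SE 0.11, edgeR adjusted p = 0.00229), and this call held under every alternative run. The others included Uqcr10 of complex III, Ndufb6 and Ndufb3 of complex I and Atp5e of complex V, at -0.46, -0.45, -0.34 and -0.43, each of which was lost without 6694c2 vehicle replicate 1. The count of 12 was 2 without 6694c2 vehicle replicate 1 and 5 without 6694c2 IFNβ replicate 3, and 19, 31 and 21 without B16F10 vehicle replicate 2, B16F10 IFNβ replicate 3 and 6694c2 vehicle replicate 2.

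For IFNγ, 1 of 86 nuclear members differed, where 4.95% and 4.52% of all genes were called higher and lower. This was Sdhc, a membrane anchor of complex II, with an effect of 0.29 more in B16F10 (SE 0.08, edgeR adjusted p = 0.0173). It had 164, 147 and 157 CPM in B16F10 vehicle libraries and 156, 164 and 159 with IFNγ, which overlapped, and 138, 145 and 144 against 131, 112 and 121 in 6694c2, which did not. For STING agonist, Ndufv2 at 0.40 and Ndufa7 at -0.48 differed, where 1.56% and 0.568% of all genes were called higher and lower. The Sdhc, Ndufv2 and Ndufa7 calls were lost when single libraries were left out, each without B16F10 vehicle replicate 2 among others.

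The nuclear members differed more between the untreated lines than they moved with any treatment. Compared on TMM scaling over all 24 libraries, 73 of 86 nuclear members were lower in 6694c2 than in B16F10 and 4 were higher, where 29.3% and 28.7% of all genes were lower and higher. Their median log2 difference was -0.79, against medians of -0.21 to 0.08 for the treatments. All 8 members of complex III were lower in 6694c2, with 32 of 37 of complex I, 3 of 4 of complex II, 10 of 12 of complex IV and 14 of 17 of complex V. The nuclear members took 2.37% ± 0.0525 of reads on genes in B16F10 vehicle libraries and 1.27% ± 0.0918 in 6694c2 (SD, n = 3), without overlap. Without TMM the median of all genes shifted to -0.19 from -0.01, and that of the nuclear members to -0.97.

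**Figure D4:**
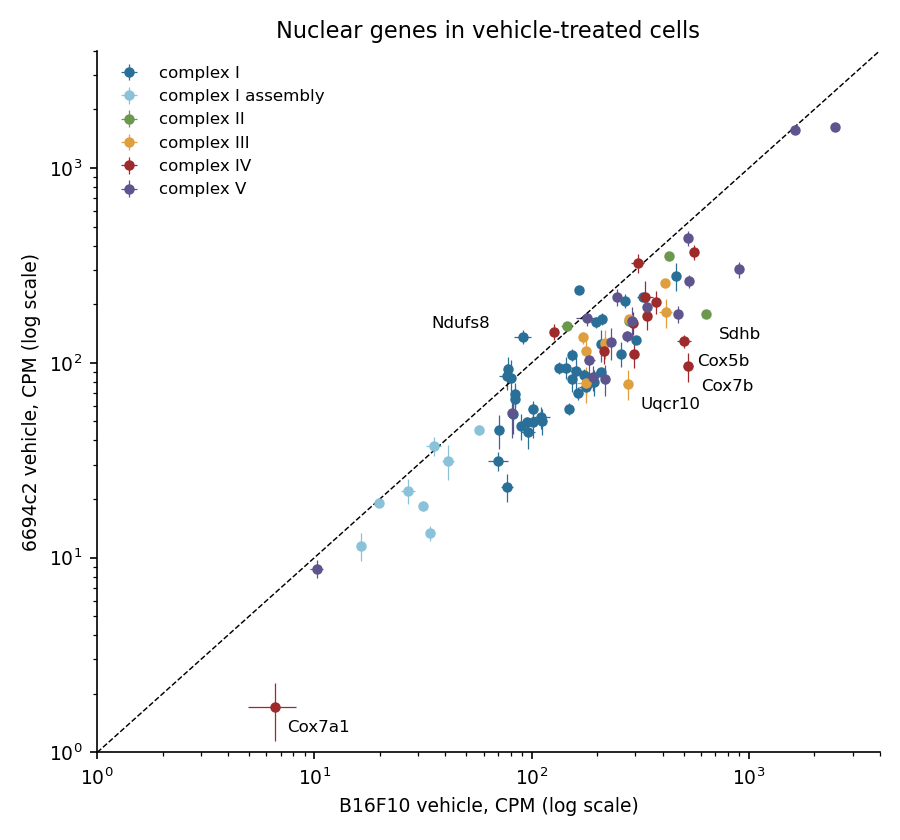
Vehicle levels of the 86 nuclear members in B16F10 (x axis) and 6694c2 (y axis), in CPM on log axes, with bars of 1 SD (n = 3). Most nuclear members lie below the line of equal levels, 73 of 86 being called lower in 6694c2 and 4 higher.

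The most certain of these differences fell in different complexes. Sdhb, the iron-sulfur subunit of complex II, had 631, 625 and 646 CPM in B16F10 and 171, 181 and 181 in 6694c2, a log2 difference of -1.83 (SE 0.07, edgeR adjusted p = 4.24e-25). Cox7b had 520.0, 503 and 554 CPM in B16F10 and 78.8, 111 and 98.4 in 6694c2, a log2 difference of -2.45 (SE 0.11, edgeR adjusted p = 3.58e-23). Cox5b, another complex IV subunit, had 533, 465 and 512 CPM against 118, 139 and 129.8, a difference of -1.97. Atp5g3, 1 of 3 genes for subunit c of the complex V rotor, had 879, 902 and 922 CPM against 270.3, 324 and 310.2, a difference of -1.58. Ndufs1 had 310.0, 293 and 302 CPM against 131, 129 and 133, a difference of -1.20. In all 5 the lines were far apart relative to their spread.

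The 4 genes higher in 6694c2 were Ndufv1, Ndufs8, Cox7a2l and Ndufa7. Ndufv1, the flavin subunit that accepts electrons from NADH, had 167, 162 and 168 CPM in B16F10 and 226, 234 and 247 in 6694c2, a log2 difference of 0.51 (SE 0.07, edgeR adjusted p = 9.72e-09). Ndufs8, an iron-sulfur core subunit, had 101, 85.2 and 88.5 CPM against 123, 142 and 143, a difference of 0.57 (SE 0.08). Both held under every alternative run. Cox7a2l at 0.19 and Ndufa7 at 0.27 were lost without TMM and without any 1 B16F10 vehicle library.

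Genes with more than one isoform were not equally affected by line. Of the subunit c genes, Atp5g1 and Atp5g3 were lower in 6694c2, at -1.0 and -1.58, while Atp5g2 was at -0.09 and did not pass. The complex IV isoform of heart and muscle Cox7a1 had 8.37, 5.17 and 6.14 CPM in B16F10 and 1.11, 2.23 and 1.77 in 6694c2, and the widely expressed Cox7a2 had 292, 283 and 311 against 97.05, 129 and 107. Both were lower in 6694c2, at -1.93 and -1.41. Cox8a, the widely expressed form of its subunit, was at 0.09 and did not pass. The alternative forms Cox4i2, Cox6a2, Cox6b2, Cox7b2, Cox8b and Cox8c, and Ndufa4l2, all lay under 1 CPM.

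Among mitochondrial members, mt-Cytb, mt-Nd4 and mt-Nd5 were lower in 6694c2 by 1.10, 0.75 and 0.63 on the log2 scale, where 29.3% of all genes were lower. The mt-Nd5 call was lost without 6694c2 vehicle replicate 2 or 3. DESeq2 called mt-Cytb and, in the higher direction, mt-Nd3, which edgeR also called and whose counts are described above. mt-Co1 differed by 0.10 and did not pass. The mitochondrial median was -0.32 between the lines, against -0.74 with IFNβ in 6694c2, so the order seen for the nuclear members was not that of the mitochondrial ones. The mt-Co1 share likewise differed by 12.69 percentage points between the lines and by 18.6 with IFNβ in B16F10.

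Ndufa4, named for complex I and now known as a subunit of complex IV, has a paralogue listed as AA467197 (Nmes1), which is no member. AA467197 had 0.357, 0.216 and 0.294 CPM in B16F10 vehicle libraries, 4.25, 3.97 and 3.78 with IFNγ, and 1.26, 1.04 and 1.74 with IFNβ. In 6694c2 it had 0.0539, 0 and 0.508 CPM in vehicle, 2.03, 1.48 and 3.18 with IFNγ, and 1.22, 1.59 and 1.5 with IFNβ. All interferon libraries lay above their vehicle. Its log2 fold changes were 3.78 and 2.21 in B16F10 and 3.63 and 2.95 in 6694c2 (edgeR adjusted p = 1.2e-22, 4.34e-07, 7.65e-07 and 5.69e-05). Ndufa4 itself had 490, 486 and 517 CPM in B16F10 vehicle libraries, 433, 406 and 461 with IFNγ and 439, 406 and 463 with IFNβ. The interferon libraries of Ndufa4 all lay below vehicle in B16F10, at -0.20 and -0.19 on the log2 scale. In 6694c2 Ndufa4 had 210, 291 and 272 CPM in vehicle, 261, 217 and 273 with IFNγ and 301, 265 and 338 with IFNβ. These overlapped, and the log2 fold changes of -0.04 and 0.23 did not pass (edgeR adjusted p = 0.879 and 0.0756).

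Genes that act with the members were followed in lists. Over all genes tested, 12% were higher and 10.8% lower with IFNγ in B16F10 and 12.7% and 11.2% with IFNβ, while in 6694c2 7.89% and 5.66% were higher and lower with IFNγ and 10.4% and 7.86% with IFNβ. Among protein-coding genes at 10 CPM or more that were no members, larger shares fell, given here as ranges over the classes of exon length. They were 19.5% to 32.2% with IFNγ and 19.6% to 45.0% with IFNβ in B16F10. In 6694c2 they were 8.96% to 14.4% and 13.5% to 17.8%. Of 42 genes for transcription, maintenance and RNA handling in mitochondria, 3 rose and 6 fell with IFNγ in B16F10, 7 rose and 6 fell with IFNβ in B16F10, 0 rose and 8 fell with IFNγ in 6694c2, and 4 rose and 7 fell with IFNβ in 6694c2, with medians from -0.09 to -0.02. The shares with IFNβ in B16F10, 16.7% and 14.3%, were near those of all genes. With IFNγ in 6694c2 19.0% fell. Pnpt1, which encodes polynucleotide phosphorylase, an exoribonuclease of mitochondria, had 83.4, 83.9 and 83.3 CPM in B16F10 vehicle libraries, 129, 119 and 120.2 with IFNγ and 207, 180.2 and 217 with IFNβ. In 6694c2 it had 47.6, 52.5 and 48.8 in vehicle, 58.7, 57.1 and 53.2 with IFNγ and 171, 160.4 and 180.2 with IFNβ. All interferon libraries lay above vehicle. The log2 fold changes were 0.55 and 1.27 in B16F10 and 1.78 with IFNβ in 6694c2, while IFNγ in 6694c2 gave 0.18 and did not pass (edgeR adjusted p = 0.107). STING agonist gave 0.11 and 0.05 in B16F10 and 6694c2 and did not pass. Tfb2m, a transcription factor of mitochondrial DNA, fell by 0.34 on the log2 scale with IFNβ in B16F10 and by 0.51 and 0.85 with IFNγ and IFNβ in 6694c2; with IFNγ in B16F10 it was at -0.22 and did not pass.

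Among 45 other assembly factors, 6 rose and 9 fell with IFNγ and 7 rose and 10 fell with IFNβ in B16F10, and 1 rose and 7 fell with IFNγ and 4 rose and 9 fell with IFNβ in 6694c2. The shares that rose in B16F10, 13.3% and 15.6%, were near the 12% and 12.7% of all genes, and those that fell in 6694c2, 15.6% and 20%, stood beside 5.66% and 7.86%. Cox18, which inserts the mitochondrially encoded subunit 2 of complex IV into the membrane, had 6.93, 10.6 and 8.08 CPM in B16F10 vehicle libraries and 18.72, 19.8 and 19.8 with IFNβ, and 6.58, 6.95 and 6.95 against 23.6, 24.7 and 24.6 in 6694c2. It was clearly above vehicle in both lines, at log2 fold changes of 1.18 and 1.83. It was also called with IFNγ in 6694c2 at 0.43 and with STING agonist in B16F10 at 0.39. Coa3, a factor that acts early on the mt-Co1 product, had 77.0, 77.3 and 82.3 CPM in B16F10 vehicle libraries, 55.5, 56.3 and 61.2 with IFNγ, 31.4, 37.2 and 42.4 with IFNβ and 59.3, 63.1 and 56.5 with STING agonist. All treated B16F10 libraries were below vehicle, at log2 fold changes of -0.45, -1.09 and -0.40 (edgeR adjusted p = 2.17e-09, 3.54e-41 and 1.69e-06). In 6694c2 it fell by 0.35 with IFNβ, and with IFNγ and STING agonist it was at 0.04 and 0.22 and did not pass. No promoter match to the 5 sets of letters was found for Pnpt1, AA467197 or Coa3.

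**Figure D5:**
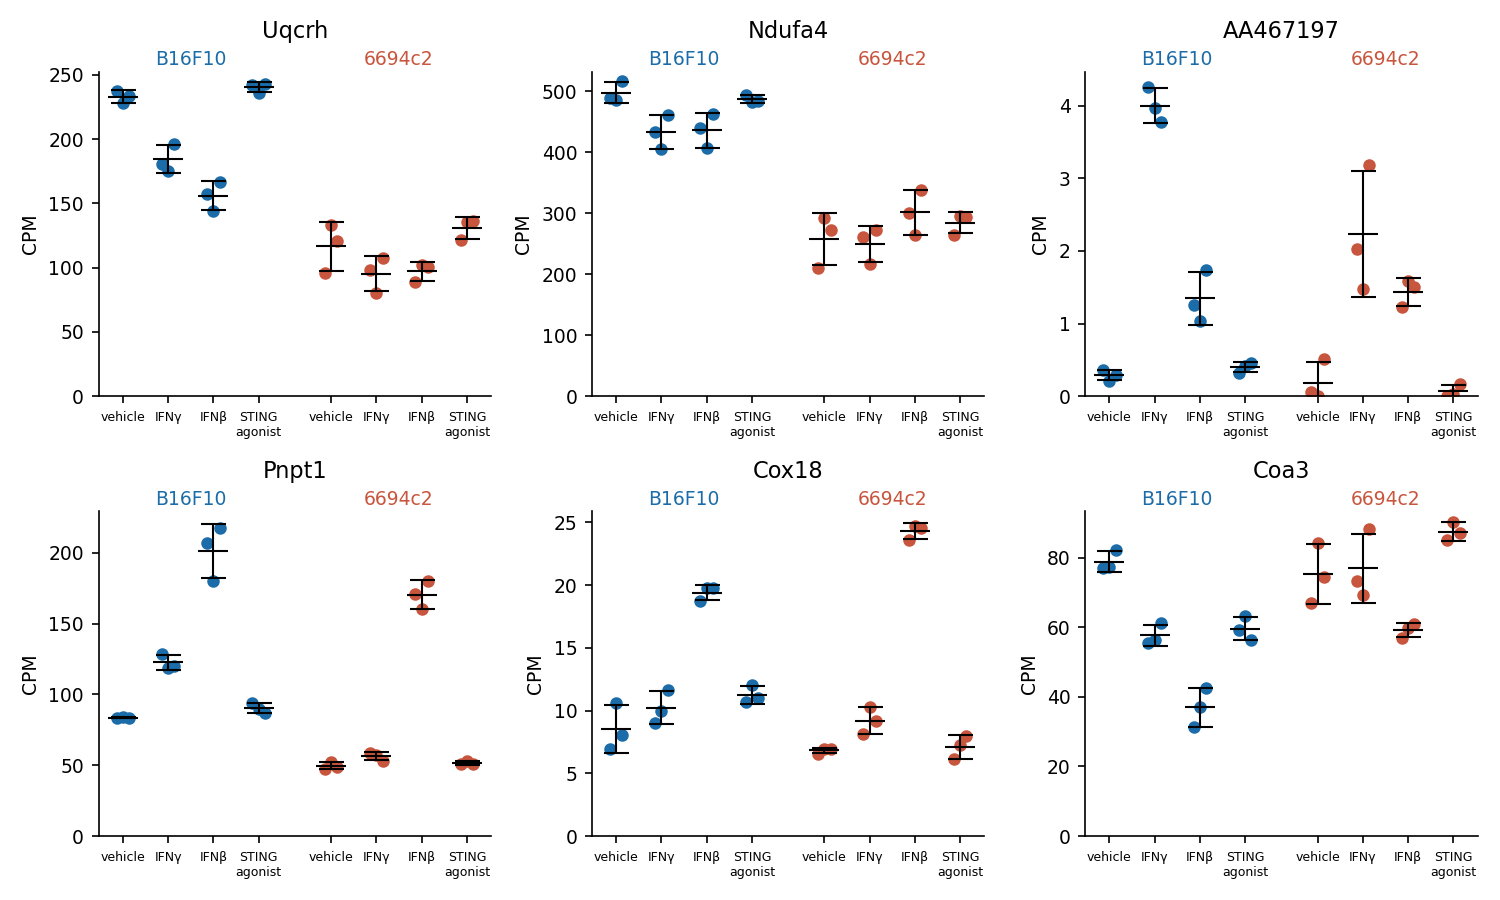
CPM by library in each treatment and line for Uqcrh, Ndufa4, AA467197, Pnpt1, Cox18 and Coa3, each on its own axis, with the mean and SD (n = 3). With IFNβ in B16F10, Uqcrh and Coa3 lie below vehicle (log2 fold changes of -0.58 and -1.09) and Pnpt1 and Cox18 above it (1.27 and 1.18).

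Of 16 genes of the tricarboxylic acid cycle, which supplies NADH and succinate, 0 rose in any comparison with vehicle. With IFNγ and IFNβ 3 and 6 fell in B16F10, 18.8% and 37.5% against 10.8% and 11.2% of all genes. In 6694c2 4 and 4 fell, 25% each against 5.66% and 7.86%. The medians were -0.12 to -0.10. With IFNγ in B16F10, 19.5% to 32.2% of protein-coding genes at 10 CPM or more that were no members fell. Fumarate hydratase, Fh1, fell by 0.24 and 0.33 on the log2 scale in B16F10 and by 0.22 and 0.46 in 6694c2, where the IFNγ call was lost without vehicle replicate 2 or 3 or any 1 IFNγ library. Of 21 glycolysis genes, 4 rose and 6 fell with IFNγ and 1 rose and 11 fell with IFNβ in B16F10, whereas in 6694c2 12 rose and 1 fell with IFNγ and 6 rose and 2 fell with IFNβ. The 12 were 57.1% of the list, against 7.89% of all genes. The line difference was tested directly: the IFNγ effect was lower in B16F10 for 12 of 21 and higher for 0, against 4.52% and 4.95% of all genes. Hk2, a hexokinase, had 147, 109 and 120.3 CPM in 6694c2 vehicle libraries and 375, 493 and 479 with IFNγ, all above vehicle, at a log2 fold change of 1.84, against 0.85 in B16F10. The lactate exporter gene Slc16a3 rose in 6694c2 by 0.86 and fell in B16F10 by 0.42 with IFNγ.

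Of 78 genes of the mitochondrial ribosome, 7 rose and 16 fell with IFNγ and 11 rose and 19 fell with IFNβ in B16F10, 1 rose and 8 fell with IFNγ in 6694c2, and 21 rose and 5 fell with IFNβ in 6694c2. The 11 rises in B16F10 were 14.1% of the list, near the 12.7% of all genes, and the 19 falls were 24.4% against 11.2%. The falls lay within the 19.6% to 45.0% of protein-coding genes at 10 CPM or more that were no members, over the classes of exon length. In 6694c2 the 21 rises with IFNβ were 26.9% against 10.4%. In the direct test, the IFNβ effect was lower in B16F10 for 11 and higher for 0, against 6.16% and 5.9% of all genes. Of 26 electron carriers and related genes, 6 rose and 4 fell with IFNγ and 4 rose and 5 fell with IFNβ in B16F10, and 2 rose and 4 fell with IFNγ and 4 rose and 5 fell with IFNβ in 6694c2. Their shares were 7.69% to 23.1% higher and 15.4% to 19.2% lower. Of 25 regulators, 3 rose and 4 fell with IFNγ, 4 rose and 7 fell with IFNβ and 2 rose and 3 fell with STING agonist in B16F10, while 4 rose and 1 fell with IFNγ and 5 rose and 2 fell with IFNβ in 6694c2. The largest share, the 7 falls with IFNβ in B16F10, was 28% against 11.2% of all genes, and with STING agonist in B16F10 1.93% and 1.53% of all genes were higher and lower. Nrf1, whose product activates many respiratory genes, had 72.2, 65.6 and 66.4 CPM in B16F10 vehicle libraries and 44.8, 46.4 and 41.2 with IFNβ, without overlap (log2 fold change -0.62, edgeR adjusted p = 2.63e-16), and in 6694c2 it had 53.0, 51.9 and 53.1 in vehicle and 53.2, 51.6 and 54.1 with IFNβ, which overlapped. Nrf1 was also lower in B16F10 with IFNγ at -0.30 (edgeR adjusted p = 0.000134) and with STING agonist at -0.25 (edgeR adjusted p = 0.0156), where 1 of 86 nuclear members fell. The part of Nrf1 in the results for the nuclear members was not tested. Ddit3, a gene of the integrated stress response, rose with IFNβ in B16F10 from 31.9, 33.6 and 32.5 CPM to 116, 118 and 135, at 1.91 on the log2 scale, and it also rose by 0.76 with IFNγ and 0.74 with STING agonist in B16F10 and by 0.64 with IFNβ in 6694c2. Myc fell in B16F10 by 0.77 with each interferon and by 0.43 with STING agonist, and rose in 6694c2 by 0.21 with IFNγ and 0.87 with IFNβ.

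Reads on genes ranged from 15543131 to 32266795 per library. Of 6 interferon-response genes taken as a check, 6 rose with each interferon in both lines and with STING agonist in B16F10, while 1 rose and 1 fell with STING agonist in 6694c2. Their summed level was 53.2 to 75.1 CPM in 6694c2 vehicle libraries and 43.2 to 49.6 with STING agonist, so this sum did not rise in the 6694c2 libraries labelled STING agonist. Melanocyte markers stood at 16510 to 20940 CPM in B16F10 and 17.9 to 127 in 6694c2.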

How the data were processed

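RNA of 24 bulk libraries was analysed, 3 for each of 4 treatments in each of 2 cell lines; 6 single-cell samples were not analysed here. The authors trimmed paired-end reads with cutadapt 1.14, aligned them with STAR 2.7.9a and counted them with Rsubread, and deposited whole-number counts per gene for each library, with a gene length used for levels per kb. The annotation, the strand setting and the treatment of multiply matching reads are not given in the sources used here; the submitters' processing notes name mm10 without saying for which libraries. Coordinates and sequences were read from GRCm38 and RefSeq tables of GRCm38.p6.

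Genes with 10 or more reads over the 24 libraries were kept (21138 of 49315). edgeR 4.0.16 (R 4.3.3) was used with TMM scaling and the quasi-likelihood test, over the 12 libraries of a line for treatments and over all 24 for line differences, with Benjamini-Hochberg adjustment over all genes kept and a threshold of 0.05. DESeq2 1.42.0, which the study used, RLE scaling, no TMM, TMM without mitochondrial genes, other filters, a replicate block, other sets of libraries and leaving out each library were alternatives. The fits were tested on simulated data. Groups were taken from the labels. Nothing says that the 3 libraries of a group came from separate cultures, so the spread behind the p-values may be technical. edgeR estimates it partly over all genes, so the SE of a gene need not show the spread of its own libraries. Depth was 15543131 to 32266795 reads on genes; reads without molecular identifiers are not independent molecules, so any counting error is a lower limit.

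Named were every mitochondrial member, up to 5 nuclear members of smallest p in each direction and comparison, alternative isoforms and, for other lists, up to 3 genes a direction. Uqcrh, Ndufaf3, Ndufaf4 and Cox7a2l across comparisons, and the mt-Co1 share, were chosen after values were seen. The members and lists were chosen with earlier results of these data known. Reads of near-identical copies on chromosome 1 may be split between genes, so mt-Nd3, mt-Nd4l, mt-Co2, mt-Co3, mt-Atp6 and part of mt-Nd4 and mt-Co1 are uncertain. Part of the genotype of the mice behind 6694c2 is not reported here.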

Additional observations from a re-analysis of the deposited data

Results flagged for a closer look

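The effect of a treatment against vehicle differed between the lines, by a test of the difference itself over all 24 libraries, for 16 values of the members. For IFNγ the value was Sdhc, a membrane anchor of complex II, at 0.29 on the log2 scale, B16F10 minus 6694c2. For IFNβ the mitochondrial gene mt-Co1 differed by 1.10. The differences of all 8 mitochondrial members lay above 0, with a median of 0.79, so this direction was not particular to mt-Co1. With IFNβ 12 nuclear members differed downwards. In complex I these were Ndufc2 at -0.46, Ndufb6 at -0.45, Ndufb3 at -0.34, Ndufa4 at -0.39 (counted with complex I by its name), Ndufb7 at -0.34, Ndufa11 at -0.39 and Ndufa7 at -0.38. In complex III they were Uqcr10 at -0.46, Uqcrb at -0.32 and Uqcrc1 at -0.29, and in complex V Atp5e at -0.43 and Atp5mpl at -0.41. For the STING agonist Ndufv2 differed by 0.40 and Ndufa7 by -0.48. All lay under a Benjamini-Hochberg adjusted p of 0.05, over all genes, in the quasi-likelihood fit of edgeR. mt-Co1 and Ndufc2 kept their calls with IFNβ under every alternative run.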

How the results depend on the processing

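Of 20 counts of called members, 235 of 320 recomputed values lay within 1.5 times the reported one and 85 did not. Single genes kept their direction and call in 4938 values, lost the call in 250, gained it in 131 and turned in 9. Depth limits mt-Nd3, with 0 to 5 reads per library in B16F10; the cause of the changes listed here was not tested, beyond fewer libraries or genes in a fit.

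With all 24 libraries fitted together in place of 12, B16F10 gave 4 nuclear and 1 mitochondrial calls with IFNγ, 40 and 1 with IFNβ, and 0 and 0 with STING agonist. With only the 6 libraries compared, mitochondrial calls were 6 with IFNγ in B16F10 and 1 each with IFNγ and STING agonist in 6694c2, and nuclear calls 13 with STING agonist in B16F10 and 1 in 6694c2. With DESeq2, mitochondrial calls in B16F10 were 1 with IFNγ, 1 with IFNβ and 0 with STING agonist, in 6694c2 2 with IFNβ, and between untreated lines 2; nuclear calls were 8 with IFNβ in 6694c2 and 4 for the line difference with STING agonist. With edgeR's own expression filter, mitochondrial calls in B16F10 were 1 with IFNγ and 0 with STING agonist. Without TMM, there was 1 mitochondrial call with IFNγ in B16F10, 17 nuclear calls with IFNγ in 6694c2 (0 higher, 17 lower), and 6 nuclear (2 higher, 4 lower) and 2 mitochondrial calls for the IFNβ line difference; the nuclear split with IFNβ in 6694c2 went from 4 higher and 9 lower to 1 and 15, and the nuclear median between untreated lines from -0.79 to -0.97. Without a filter beyond 1 read, mitochondrial calls were 5 with IFNγ in B16F10, 2 each with IFNγ and STING agonist in 6694c2, 1, 7 and 7 for the IFNγ, IFNβ and STING agonist line differences and 7 between untreated lines, and nuclear calls 1 with STING agonist in 6694c2 and 3, 26 and 9 for those line differences.

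Replicate numbers did not pair the libraries: same-numbered libraries correlated at -0.251 to 0.259 in B16F10 and -0.46 to 0.359 in 6694c2, and 5 of 12 and 3 of 12 libraries correlated best with their own number. With the replicate block, mitochondrial calls were 5 with IFNγ in B16F10 and 1 with IFNγ in 6694c2, and nuclear calls 17 with IFNγ and 1 with STING agonist in 6694c2 and 19 for the IFNβ line difference.

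Leaving out 1 library at a time, nuclear calls ranged in B16F10 from 12 to 31 with IFNγ, 48 to 71 with IFNβ and 0 to 4 with STING agonist, in 6694c2 from 4 to 34, 6 to 21 and 0 to 3, for the line differences from 0 to 5, 2 to 31 and 0 to 3, and between untreated lines from 74 to 76. Mitochondrial calls ranged in B16F10 from 2 to 6, 3 to 7 and 1 to 7, in 6694c2 from 0 to 1, 5 to 7 and 0 to 0, for the line differences from 0 to 0, 1 to 7 and 0 to 0, and between untreated lines from 3 to 5, in the same order. Values that turned in B16F10, each given as the range over the libraries left out, were mt-Nd2 from -0.23 to 0.13, mt-Nd4 from -0.15 to 0.28, mt-Nd5 from -0.15 to 0.22 and mt-Nd6 from -0.15 to 0.19 with IFNβ (lowest without IFNβ replicate 1 and highest without IFNβ replicate 3), and mt-Cytb from -0.27 to 0.19, mt-Nd1 from -0.091 to 0.39, mt-Nd2 from -0.036 to 0.42, mt-Nd4 from -0.053 to 0.39 and mt-Nd5 from -0.10 to 0.36 with STING agonist (lowest without STING agonist replicate 3 and highest without STING agonist replicate 1).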

Other observations

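Genes next to the respiratory chain held further changes. With STING agonist in B16F10, Cycs, which encodes cytochrome c, was higher by 0.23 on the log2 scale (SE 0.05, edgeR adjusted p = 0.000442), 1 of 26 electron carriers and related genes called there. With IFNβ in B16F10, Vdac1, the pore of the outer membrane, fell by 0.39, the ADP/ATP carrier gene Slc25a4 by 0.27 and Coq7, of ubiquinone synthesis, by 0.62, while Coq9, also of ubiquinone synthesis, rose by 0.37. In the same comparison the coactivator gene Ppargc1a rose by 0.46 and the stress regulator Atf4 by 0.35.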
